A study of Mus musculus with 9 samples.

Results

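The odorant receptor (OR) genes examined here were the rows of the count table whose symbol runs from Olfr987 to Olfr1318, with pseudogene symbols left out. This rule used gene names and no measured value, and it found 242 genes among 24421 gene rows, 21.9% of the 1107 rows with an OR symbol. Whole main olfactory epithelium (MOE) was profiled by polyA-selected RNA-seq in 9 libraries from mice labelled strain C57BL/6 and age P14, postnatal day 14. The groups were 3 wild-type libraries, 3 heterozygous libraries (TAAR enhancer 1 +/-) and 3 homozygous libraries (TAAR enhancer 1 -/-). TAAR enhancer 1 is a noncoding element on chromosome 10 that the study removed by CRISPR-Cas9 to ask how the trace amine-associated receptor (TAAR) genes beside it are controlled. The 3 genotypes came from 1 knockout line and are described as littermates. The study's reporting form gives a mixed strain background and an older age for this line, which was not resolved. For the OR genes of chromosome 2, the question that the design poses is whether their mRNA levels differed when 1 or both copies of this element were missing from another chromosome.

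Each mature olfactory sensory neuron (OSN) transcribes a single allele of a single receptor gene. In whole MOE, the mRNA level of a receptor gene therefore follows both how many neurons have chosen it and how much RNA each of them holds, and bulk libraries cannot tell fewer cells from less RNA per cell. OR genes lie in clusters that are packed in heterochromatin until one of them is chosen. The choice involves intergenic enhancers, known as Greek islands, that bind Lhx2 and Ebf factors and the adaptor Ldb1, and a feedback signal from the receptor protein that then keeps the choice stable.

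The name of a single main cluster did not match the map. On the GRCm38 build with GENCODE M21 annotation, all 242 genes lay on chromosome 2, but in 2 stretches that were 20.9 Mb apart. The proximal stretch held 206 genes from Olfr987 to Olfr1272 (chr2:85330779-90292841), 72 on the plus strand and 134 on the minus strand. The distal stretch held 36 genes from Olfr1275 to Olfr1318 (chr2:111230360-112159157), 15 on the plus strand and 21 on the minus strand. Between them the annotation has 127 protein-coding genes, of which 1 is an OR gene, while no other space between neighbouring members was wider than 136 kb. GENCODE lists 241 members as protein coding and 1 as another gene type. Olfr1182 and Olfr1213 were found there under other symbols, through RefSeq synonyms. The coding part had a median length of 936 bases, and the merged exons had a median of 2889 bases (918 to 15582), so most of the exon length lies outside the coding part. For 6 members the exons overlap those of another gene on the same strand.

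RefSeq synonyms place 230 members in 45 MOR families, a naming system based on protein similarity. All 36 genes of the distal stretch belonged to MOR245 (21 members) or MOR248 (15 members). The largest families of the proximal stretch were MOR233 (17 members), MOR231 and MOR264 (14 members each). Proteins were translated from the longest open frame of the GENCODE transcripts. Pairs in the same family had a median identity of 70.2% over 1028 pairs, compared with 42.9% for pairs from different families. The protein most like a given member was encoded in the same stretch for all 242, and within 3 places along the chromosome for 161. The closest pairs were Olfr1049 and Olfr1051 (98.4% identical), Olfr1129 and Olfr1130 (98.1%) and Olfr1057 and Olfr1062 (97.8%). Near-identical copies can share reads, which bears on their counts. When transcripts were read in stretches of 100 bases, 123 members had no stretch shared with another gene, and 16 had fewer than 90% of their stretches to themselves. The lowest was Olfr1282 at 77.9%, so its counts are uncertain.

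Upstream windows in RefSeq (GRCm38.p6) were available for 201 members, 203 windows in all, each with 250 bases before the annotated start and 50 after it. In 147 of the windows (72.4%) the annotated start is the start codon, so those windows may not reach the transcription start. These windows were searched on both strands for 3 motifs, and a match describes letters and not a site. TAATTA, a core bound by homeodomain factors such as Lhx2, was in 25.6% of the members' windows, in 16.7% of 741 windows of other OR genes and in 5.29% of all 32851 windows. TATAAA was in 54.7%, 37.5% and 13.6% of them, and these letters can overlap, as TAATTA and TATAAA did in Olfr1303. The core of the Ebf (O/E) site, TCCC and GGGA with 2 bases between them, was in none of the members' windows, compared with 0.675% of the windows of other OR genes and 0.904% of all windows. Between 18.3% (Olfr1132) and 40.7% (Olfr1048) of the bases in members' windows were G or C. TAATTA and TATAAA hold only A and T, and the part of base composition in these shares was not tested. Of the members with a start upstream of the coding part, 4 are shown with motif letters in capitals. Olfr1213 had the highest level of all members and none of the 3 motifs (chr2:88980218-88980517, minus strand). Olfr1110, the fourth highest, held TATAAA after its start (chr2:87140184-87140483, minus strand). Olfr1166 had the smallest p of the proximal stretch in the comparison of homozygous with wild-type mice. Its TATAAA letters, read here as TTTATA, lay 8 to 3 bases before the RefSeq start (chr2:88124944-88125243, minus strand). The whole window of Olfr1166 lies inside its GENCODE span, which is given below, so it may not reach the transcription start. The GENCODE spans of Olfr1213 and Olfr1110 also begin upstream of the RefSeq starts used here. Olfr1290, a distal member, held TAATTA from 129 to 124 bases before the start (chr2:111493766-111494065, minus strand).
Olfr1213: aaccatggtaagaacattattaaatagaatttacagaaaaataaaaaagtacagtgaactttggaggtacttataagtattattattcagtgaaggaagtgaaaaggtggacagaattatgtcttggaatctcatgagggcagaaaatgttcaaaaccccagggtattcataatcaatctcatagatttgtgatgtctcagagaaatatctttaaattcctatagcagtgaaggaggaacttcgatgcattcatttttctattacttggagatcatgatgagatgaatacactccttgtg
Olfr1110: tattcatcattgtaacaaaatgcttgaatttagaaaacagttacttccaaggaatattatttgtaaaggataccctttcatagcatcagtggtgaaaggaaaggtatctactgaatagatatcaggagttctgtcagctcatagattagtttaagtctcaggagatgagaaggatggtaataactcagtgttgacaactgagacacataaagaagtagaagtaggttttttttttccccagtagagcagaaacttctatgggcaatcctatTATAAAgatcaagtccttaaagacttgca
Olfr1166: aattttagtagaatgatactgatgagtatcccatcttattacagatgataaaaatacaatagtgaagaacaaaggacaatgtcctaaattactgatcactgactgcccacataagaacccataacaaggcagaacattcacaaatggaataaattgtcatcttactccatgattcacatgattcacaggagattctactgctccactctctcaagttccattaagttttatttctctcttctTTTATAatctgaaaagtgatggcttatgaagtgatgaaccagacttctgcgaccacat
Olfr1290: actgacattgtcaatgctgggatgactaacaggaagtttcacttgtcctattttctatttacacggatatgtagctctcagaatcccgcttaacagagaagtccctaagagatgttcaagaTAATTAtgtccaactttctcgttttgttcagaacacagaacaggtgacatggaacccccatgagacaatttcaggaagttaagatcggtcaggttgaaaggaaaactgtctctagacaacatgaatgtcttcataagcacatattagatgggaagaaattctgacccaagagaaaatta

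The libraries held 24583906 to 32631951 reads counted in genes, and members took 13234 to 18373 of these reads per library. This was 17.25% to 18.81% of all OR reads, and 237 to 240 members had at least 1 read in any given library. Omp, the marker of mature OSNs, stood at 3045 to 3550 CPM (reads per 1000000 reads in genes) in every library. Taar2 to Taar5, TAAR genes on one side of the deleted element, together had 227, 337 and 238 reads in the wild-type libraries, 176, 173 and 158 in the heterozygous ones and 3, 1 and 1 in the homozygous ones. The lowest counts were thus in the libraries labelled homozygous. Reads from 330 vomeronasal receptor genes, 179 of them with enough reads to be tested and 0 called in any comparison, summed to 14.6 to 17.3 CPM in 6 libraries. The sum was higher in 3 libraries, at 67.9 CPM (heterozygous replicate 1), 120 CPM (homozygous replicate 2) and 69.5 CPM (homozygous replicate 3). The part of this difference between libraries in the results was not tested beyond leaving these 3 libraries out, and the values without them are given beside the calls, the median fold changes and the summed level of members.

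Levels in wild-type MOE were first compared between members. For this, CPM scaled by the trimmed mean of M values (TMM) was divided by the merged exon length in kb. The median wild-type level was 0.569 CPM per kb, and the quartiles were 0.306 and 1.03, a 3.37-fold range. Olfr1213 (MOR233, chr2:88972055-88980281) was the highest at 6.33 ± 0.33 CPM per kb (SD, n = 3). In its 9 libraries it had 395, 531 and 453 reads in wild-type, 440, 510 and 438 in heterozygous and 446, 473 and 400 in homozygous mice. The genotypes overlapped fully, and Olfr1213 was the only member whose wild-type range did not reach that of the next one down.

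The next 9 in order were Olfr1006, Olfr1264, Olfr1110, Olfr1015, Olfr1112, Olfr1133, Olfr1228, Olfr994 and Olfr1140. All are predicted odorant receptors of the proximal stretch, from 8 families. Olfr1006 (MOR213, chr2:85673657-85678767) stood at 3.72 ± 0.36 CPM per kb, Olfr1264 (MOR236, chr2:90018526-90025577) at 3.6 ± 0.42 and Olfr1110 (MOR172, chr2:87133673-87140300) at 3.0 ± 0.18. Olfr1140 closed the list at 2.43 ± 0.14 CPM per kb. The order is not sharp, since the wild-type ranges of 240 of 241 neighbours in it overlapped. It also depends on the length used. With coding length in place of merged exon length, only 5 of these 10 remained among the 10 highest. Olfr1133, with 993 bases of annotated exon, ranked 7 per kb of exon and 78 per kb of coding sequence. By wild-type CPM alone, the 10 highest members held 16.8% of the summed member CPM, and 52 members made up 50% of it. Olfr1213 ranked 9 and Olfr1264 ranked 13 among all OR genes by CPM, and 5 members were among the 50 highest.

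**Figure D1:**
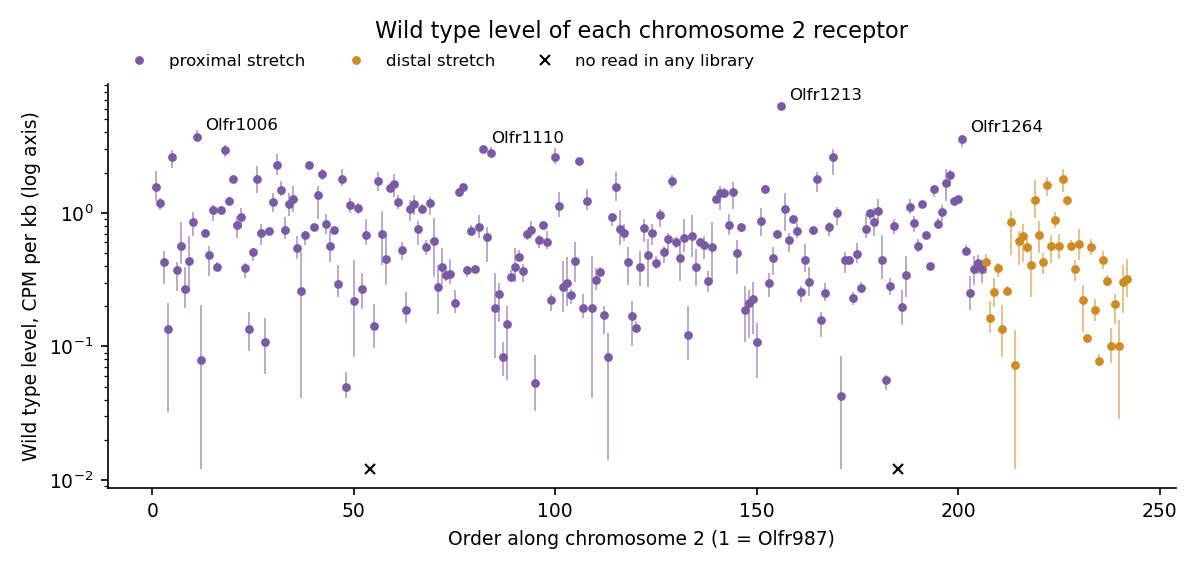
Mean wild-type level of each member in CPM per kb of merged exon (log axis) against its order along chromosome 2, with vertical lines from the lowest to the highest of 3 libraries, and lines that reach 0 drawn to the bottom mark. Levels vary along both stretches, with a maximum of 6.33 CPM per kb in the proximal stretch (Olfr1213) and 1.79 in the distal one. Crosses mark the 2 genes with no read.

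At the other end, Olfr1061 and Olfr1248 had no read in any library, which allows at most 3 reads, or 0.0919 to 0.122 CPM, in a library, counting error only. Olfr1128 had 7 reads in total (2, 1 and 1 in wild-type, 0, 0 and 0 in heterozygous, 0, 0 and 3 in homozygous mice) and was not tested. Members of the distal stretch had a median of 0.417 CPM per kb, and those of the proximal stretch 0.631. The first and last members along the chromosome were Olfr987, at 1.55 ± 0.44 CPM per kb, and Olfr1318, at 0.319 ± 0.12. Beside the wide gap lay Olfr1272, at 0.380 ± 0.076, and Olfr1275, at 0.429 ± 0.074. As a description over genes, which are not independent and share libraries, the Spearman correlation of level between members 1 place apart was 0.24 (240 pairs), 2 places apart 0.12 (238 pairs) and 5 places apart -0.015 (232 pairs). Members on the plus strand had a median of 0.603 CPM per kb and those on the minus strand 0.564.

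Levels varied widely within several families. Among families of 5 or more, medians ran from 0.289 CPM per kb in MOR177 to 1.07 in MOR188, yet within MOR233 alone levels ran from 0.157 (Olfr1223) to 6.33 (Olfr1213). MOR264 held both Olfr1112, at 2.83 CPM per kb, and Olfr1116, at 0.0838. The annotated transcripts of Olfr1116 are much longer, with 9556 stretches of 100 bases against 1344 for Olfr1112. Part of that contrast thus comes from the length used. In the distal stretch MOR248 had a median of 0.568 CPM per kb and MOR245 a median of 0.310. Members with nearly the same protein could differ in level per kb of exon. Olfr1049 stood at 0.748 ± 0.014 CPM per kb in wild-type mice, against 0.293 ± 0.096 for its neighbour Olfr1051. Their ranges did not overlap there, but they did in the heterozygous and homozygous mice (0.493 ± 0.27 against 0.336 ± 0.063, and 0.568 ± 0.30 against 0.333 ± 0.062). The annotated transcripts of Olfr1049 are shorter, with 1373 stretches of 100 bases against 2800 for Olfr1051. Part of the difference per kb thus comes from the length used. Olfr1049 had 81.2% of its stretches to itself and Olfr1051 90.8%, so shared reads may also bear on these levels. Olfr1129 (0.625 ± 0.069) and Olfr1130 (0.805 ± 0.00074) were closer.

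**Figure D2:**
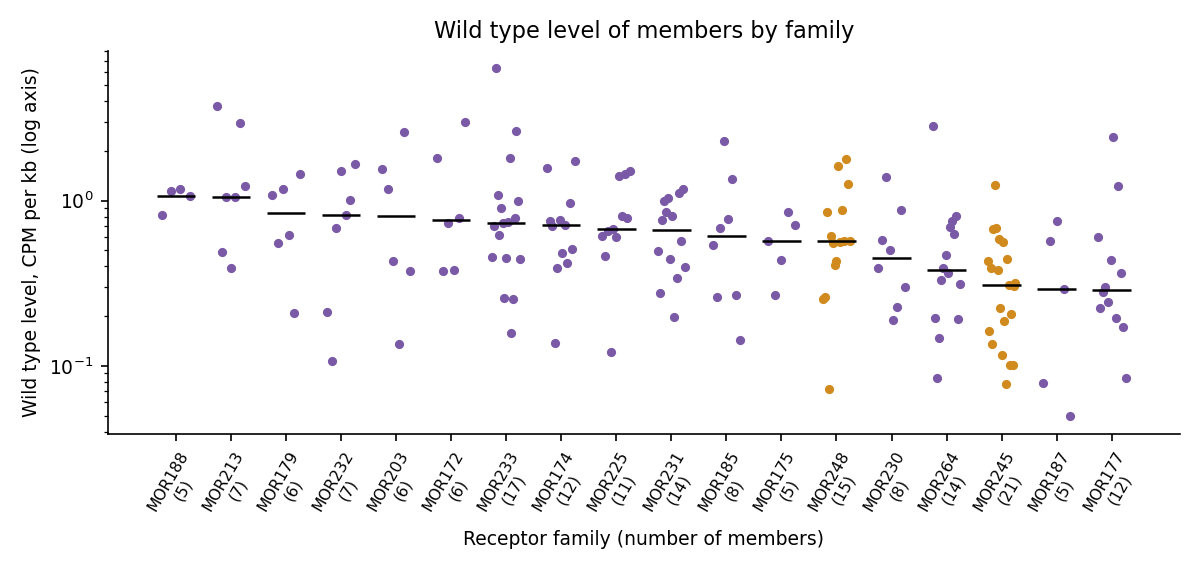
Mean wild-type level of each member in CPM per kb (log axis) for the MOR families with 5 or more members, in order of their medians (black lines), proximal families in purple and distal ones in orange. The member of MOR188 with no read is not drawn, the medians run from 0.289 to 1.07, and the members of MOR233 from 0.157 to 6.33.

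The pattern of levels was stable from mouse to mouse. Spearman correlations of member CPM per kb were 0.893 to 0.932 over 9 pairs of libraries of the same genotype and 0.888 to 0.948 over 27 pairs of different genotypes. The biological coefficient of variation that edgeR estimated for each gene, the SD between animals as a share of the mean, had a median of 15.7% for members and 14.3% for other OR genes. Within the same range of CPM it was 14.8% for 119 members, 14.8% for 397 other OR genes and 15.3% for 1559 other genes. Because edgeR draws each estimate toward those of genes with similar CPM, the closeness of these medians cannot show that the spreads were equal. For the 22 members with at least 100 reads in every library, where counting error is small, the highest library was 1.14 to 1.76 times the lowest. Olfr1263 had the widest such range, with 5.38, 5.68 and 5.64 CPM in wild-type, 5.38, 7.07 and 4.6 in heterozygous and 6.62, 6.54 and 4.02 in homozygous mice. It was followed by Olfr1260 (5.50, 7.51 and 9.51 CPM in wild-type, 7.11 to 8.44 in heterozygous and 7.36 to 8.59 in homozygous mice), Olfr1140, Olfr994 and Olfr1228. In Olfr1263 and Olfr1260 the libraries of the 3 genotypes overlapped.

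Genotypes were compared with edgeR's quasi-likelihood test over 20213 genes, 239 of them members, with Benjamini-Hochberg adjustment over all genes. No member passed an adjusted p of 0.05 between homozygous and wild-type mice, where 0.0495% of all genes were called. None passed between heterozygous and wild-type mice (0.00495% of all genes), between homozygous and heterozygous mice (0.114%) or in the test for any difference among the genotypes (0.0643%). DESeq2, with or without independent filtering, called 0 members in each comparison as well. At an unadjusted p under 0.05, edgeR gave 13 members between homozygous and wild-type mice (12 higher, 1 lower), 5.44% of those tested. Among all genes the share was 9.26%, with 4.55% higher and 4.71% lower. It gave 3 members between heterozygous and wild-type mice (1.26%, with 3.25% of all genes) and 14 between homozygous and heterozygous mice (5.86%, with 10.4% of all genes). Homozygous libraries lay wholly above wild-type ones for 17 members (7.11%, with 7.46% of all genes) and wholly below for 3 (1.26%, with 7.95%). Without the 3 libraries that held vomeronasal reads, which leaves 1 homozygous library, the adjusted counts were again 0. For the homozygous mice, the standard error of a member's log2 fold change against wild type had a median of 0.23. Small differences in single genes were thus not detectable with 3 mice per group at this depth. Larger fitted differences were not called either: 7 members had one of more than 2-fold. These fitted values cannot tell a missed difference from noise.

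More members had a higher than a lower fitted level in homozygous mice, a count that was not tested. Of 239 members, 161 had a positive log2 fold change against wild type and 78 a negative one, 67.4% positive where all genes had 49.8% and other OR genes 61.0%. Their median log2 fold change was 0.086, beside 0.057 for 831 other OR genes and -0.00057 for all genes tested. It fell to 0.043 without homozygous replicate 2, rose to 0.13 without homozygous replicate 3 and was 0.084 without the 3 libraries with vomeronasal reads. Scaled to the total of OR reads, the median of members was 0.024. Between heterozygous and wild-type mice, 117 members were higher (49.0%, with 51.5% of all genes) and 122 lower, with a median of -0.0058. Leaving out heterozygous replicate 1 moved that median to 0.078, and leaving out all 3 libraries with vomeronasal reads moved it to 0.079. The comparison of homozygous with heterozygous mice, which shares the homozygous libraries with the first, gave a median of 0.083, and 0.022 without the 3 libraries with vomeronasal reads. The summed level of all 242 members was 531, 561 and 554 CPM in wild-type, 511, 595 and 550 in heterozygous and 590, 605 and 543 in homozygous libraries. The means were 549 ± 15.6, 552 ± 42.1 and 579 ± 32.2 CPM (SD, n = 3), 5.54% higher in homozygous than in wild-type mice, and the libraries overlapped. This difference was 3.21% without homozygous replicate 2, 8.83% without homozygous replicate 3 and 7.46% without the 3 libraries with vomeronasal reads. The sum of all other OR genes was 4.15% higher, with 2491, 2573 and 2522 CPM in wild-type and 2689, 2612 and 2600 in homozygous libraries, which did not overlap.

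**Figure D3:**
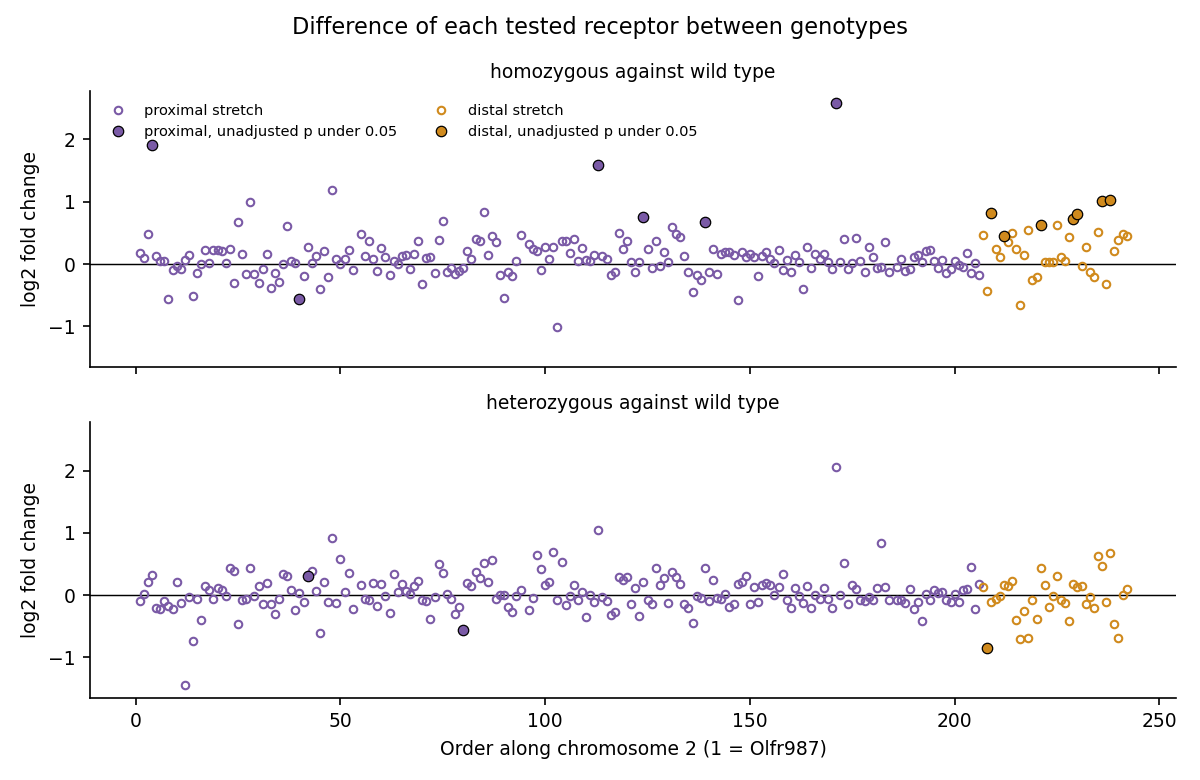
The log2 fold change of each tested member against wild type (top, homozygous; bottom, heterozygous) by order along chromosome 2; filled points have an unadjusted p under 0.05 and none passed the adjusted threshold. In the top panel 7 of the 13 filled points lie in the distal stretch of 36 genes, all above 0, where 4.55% of all genes were higher at this p.

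The members with the smallest p between homozygous and wild-type mice are given by sample, although none passed the adjusted threshold, and they were picked for this difference. Olfr1311 (MOR245, distal, chr2:112019656-112024412) had the smallest. It stood at 1.16, 1.01 and 1.39 CPM in wild-type, 1.85, 1.78 and 1.29 in heterozygous and 2.61, 1.67 and 2.90 in homozygous mice. All 3 homozygous libraries were above all wild-type ones, with a log2 fold change of 1.02 (SE 0.25, unadjusted p = 0.00095, edgeR's adjusted p = 0.273). Olfr1166 (MOR174, proximal, chr2:88123360-88128272) had 1.45, 1.65 and 1.16 CPM in wild-type, 2.03, 1.36 and 1.59 in heterozygous and 2.64, 2.44 and 2.17 in homozygous mice. Wild-type and homozygous libraries did not overlap, and the log2 fold change was 0.76 (SE 0.22, edgeR's adjusted p = 0.343).

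Olfr1305 (MOR245, distal, chr2:111867657-111877149) stood at 1.28, 1.04 and 1.78 CPM in wild-type, 1.18, 1.70 and 1.59 in heterozygous and 2.36, 2.44 and 2.32 in homozygous mice. Its homozygous libraries were nearly equal and lay above the other 6, with a log2 fold change of 0.81 (SE 0.23, edgeR's adjusted p = 0.343). Olfr1277 (MOR248, distal, chr2:111264946-111274106) had 1.16, 1.92 and 1.43 CPM in wild-type, 1.6, 1.55 and 1.08 in heterozygous and 3.45, 1.87 and 2.71 in homozygous mice. Homozygous replicate 2 lay below wild-type replicate 2, so these groups overlapped. Olfr1303 (MOR245, distal) had 0.924, 1.31 and 1.16 CPM in wild-type against 2.08, 2.03 and 1.55 in homozygous mice, and Olfr1290 (MOR248, distal) had 1.04, 1.31 and 1.51 against 1.76, 2.07 and 2.17. Neither gene overlapped between these genotypes. Olfr1280 (MOR248, distal) overlapped, with 1.89, 1.92 and 2.20 CPM against 2.85, 2.19 and 3.17.

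Olfr1044 (MOR185, proximal, chr2:86168589-86177820) was the only one of the 13 that was lower. It had 2.57, 2.66 and 2.40 CPM in wild-type, 1.85, 2.91 and 3.08 in heterozygous and 1.90, 1.63 and 1.62 in homozygous mice, with a log2 fold change of -0.56 (SE 0.21, edgeR's adjusted p = 0.447). The remaining 2 of the 10 smallest had few reads. Olfr993 (MOR203) had 5, 1 and 4 reads in wild-type, 5, 4 and 4 in heterozygous and 6, 8 and 23 in homozygous mice, and Olfr1230 (MOR237) had 1, 0 and 2, then 7, 3 and 4, then 5, 1 and 13. For both, homozygous replicate 3 held most of the homozygous reads.

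**Figure D4:**
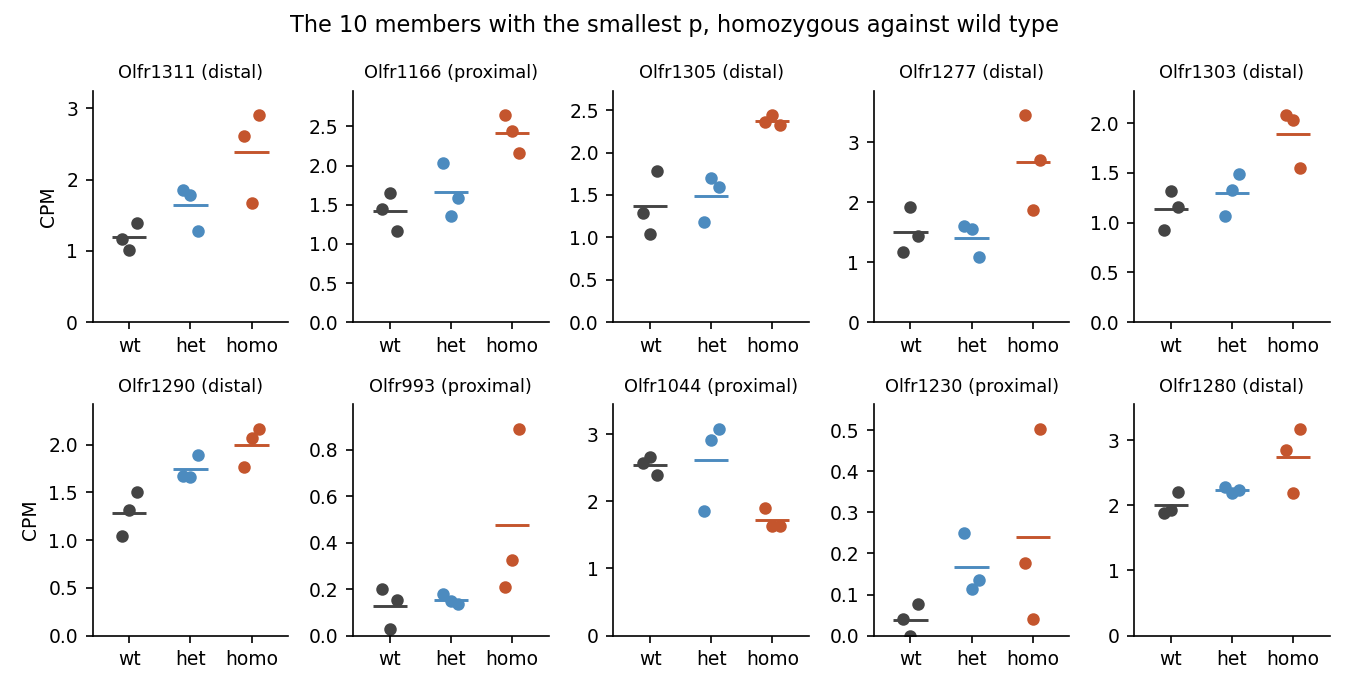
CPM in each library for the 10 members with the smallest p between homozygous and wild-type mice, with points for libraries, bars for the mean of 3, and wt, het and homo for wild type, heterozygous and homozygous. In 9 of the 10 the homozygous mean is above the wild-type mean, Olfr1044 is the exception, and 6 of the 10 lie in the distal stretch.

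Between heterozygous and wild-type mice the 5 smallest p-values belonged to Olfr1107, Olfr1276, Olfr1046, Olfr1131 and Olfr1290, and edgeR's adjusted p was 1.00 for each. Olfr1107 (MOR172) had 1.73, 1.74 and 1.55 CPM in wild-type and 1.07, 0.983 and 1.35 in heterozygous mice, which did not overlap, but 1.44, 1.75 and 1.62 in homozygous mice. Its homozygous levels were thus close to the wild-type ones. Olfr1046 (MOR194) had 5.46, 5.90 and 4.91 CPM in wild-type and 6.23, 6.35 and 7.54 in heterozygous mice, and 6.76, 7.07 and 5.76 in homozygous mice. Between homozygous and heterozygous mice the smallest belonged to Olfr1302, Olfr1277, Olfr1305, Olfr1044 and Olfr1024. Olfr1302 (MOR248, distal) had 1.03, 0.983 and 1.45 CPM in heterozygous and 2.22, 2.24 and 1.82 in homozygous mice, with 1.49, 1.47 and 1.70 in wild-type mice in between (edgeR's adjusted p = 0.192).

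The 36 distal genes were looked at together only after these values were seen, so what follows is a description with no test. Of them, 28 were higher in homozygous than in wild-type mice and 8 lower, with a median log2 fold change of 0.26, while the 203 tested proximal members had 133 higher, 70 lower and a median of 0.074. Against wild type, 8 of the 36 had homozygous libraries wholly above, compared with 7.46% of all genes, and 1 wholly below, compared with 7.95%. Between heterozygous and wild-type mice 15 distal genes were higher and 21 lower, with a median of -0.046. Summed over the stretch, the distal level was 54.4, 58.0 and 65.6 CPM in wild-type, 55.8, 58.7 and 59.7 in heterozygous and 73.0, 64.6 and 71.2 in homozygous libraries. Wild-type replicate 3 lay above homozygous replicate 2, so the groups overlapped. The mean was 59.4 ± 5.68 CPM in wild-type, 58.1 ± 2.02 in heterozygous and 69.6 ± 4.44 in homozygous mice (SD, n = 3). As a share of all member reads, the distal genes took 10.2% (95% Wilson interval 9.74% to 10.8%), 10.3% (9.91% to 10.8%) and 11.8% (11.3% to 12.4%) in wild-type libraries. The shares were 10.9%, 9.86% and 10.9% in heterozygous libraries, and 12.4% (11.9% to 12.9%), 10.7% (10.2% to 11.2%) and 13.1% (12.6% to 13.7%) in homozygous ones. These intervals cover counting error only, and homozygous replicate 2 lay among the wild-type libraries.

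**Figure D5:**
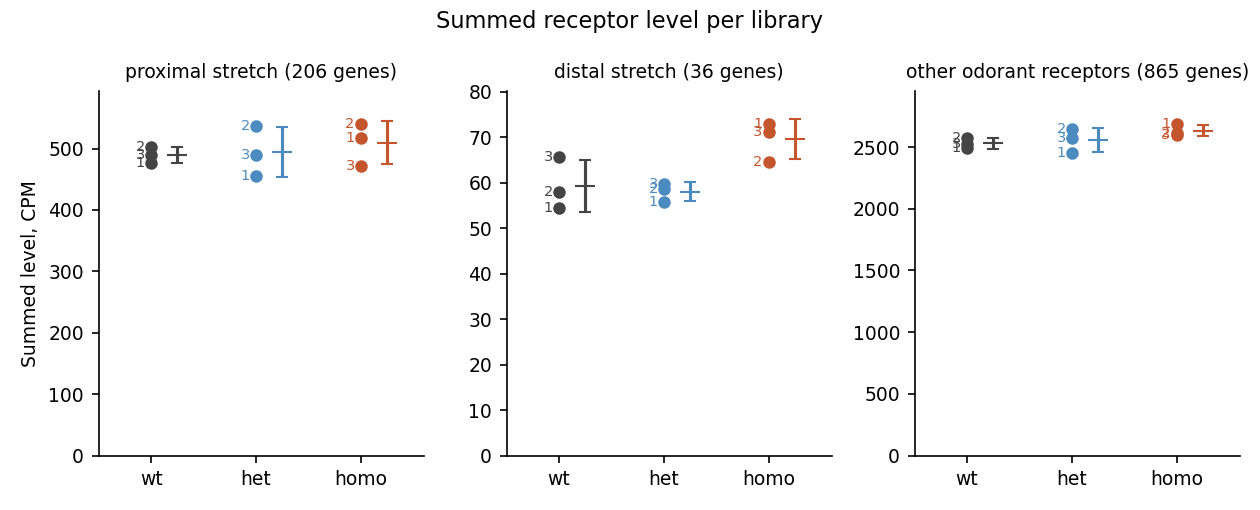
Summed CPM of the proximal stretch, the distal stretch and the other OR genes in each library (points, numbered by replicate), with mean and SD of 3 libraries beside them, and wt, het and homo for wild type, heterozygous and homozygous. Distal sums are 54.4 to 65.6 CPM in wild-type, 55.8 to 59.7 in heterozygous and 64.6 to 73.0 in homozygous libraries. Wild-type and homozygous libraries overlap in the distal and in the proximal sums. They do not overlap in the sums of other OR genes (2491 to 2573 CPM in wild-type, 2600 to 2689 in homozygous libraries).

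The distal values depended on single libraries. Leaving out wild-type replicate 1 lowered the distal median to 0.099 (26 of 36 higher), and leaving out wild-type replicate 3 raised it to 0.41 (29 of 36 higher). Without the 3 libraries with vomeronasal reads it was 0.21, with 23 of 36 higher, in a comparison that keeps only homozygous replicate 1. By family, all 15 MOR248 genes had a positive log2 fold change against wild type (0.030 to 0.82, median 0.35), where 49.8% of all genes and 61.0% of other OR genes had one. For 3 of the 15 the homozygous libraries lay wholly above the wild-type ones, compared with 7.46% of all genes. The summed MOR248 level was 34.0, 35.8 and 40.3 CPM in wild-type, 34.8, 36.4 and 37.2 in heterozygous and 43.9, 40.9 and 43.6 in homozygous mice. Its homozygous libraries were above all others. MOR245 was mixed, with 13 genes higher and 8 lower (median 0.25). The proximal families of 10 or more genes had medians between 0.056 and 0.25. Olfr1299, the highest of MOR248 per kb of exon, had 2.57, 3.24 and 3.79 CPM in wild-type and 2.96, 3.54 and 3.95 in homozygous mice, which overlapped, and its exons overlap another gene. Olfr1288, the highest of MOR245, had 1.2, 1.41 and 2.32 CPM against 1.23, 1.26 and 1.62.

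The study used 2 members as in situ hybridisation probes. Olfr1019 (MOR180) had 2.57, 2.87 and 1.97 CPM in wild-type, 2.32, 2.95 and 2.67 in heterozygous and 2.92, 3.41 and 2.32 in homozygous mice (log2 fold change against wild type 0.21, SE 0.20, edgeR's adjusted p = 0.796). Olfr1034 had 4.58, 3.15 and 3.09 CPM in wild-type, 3.53, 3.52 and 2.71 in heterozygous and 2.57, 3.58 and 2.09 in homozygous mice (log2 fold change -0.39, SE 0.22, edgeR's adjusted p = 0.618). Both overlapped between the genotypes. With each library left out in turn, the log2 fold change ran from 0.083 to 0.35 for Olfr1019 and from -0.62 to -0.19 for Olfr1034.

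Genes linked to OR choice and OR function, and markers of cell types, were read beside the members. Of 19 genes tied to OR choice, among them Lhx2, Ldb1 and the Ebf genes, 0 passed the adjusted threshold in any comparison, and in homozygous mice their median log2 fold change against wild type was 0.042. In this list Atf5, a transcription factor of the feedback that stabilises OR choice, had the smallest p (log2 fold change 0.21, SE 0.049, unadjusted p = 0.00061, edgeR's adjusted p = 0.237). Of 4 genes for OR transport and signal coupling (Rtp1, Rtp2, Reep1 and Ric8b), 0 passed, with a median of 0.12. Rtp1, which carries ORs to the cell surface, stood 0.14 higher on the log2 scale (SE 0.043, edgeR's adjusted p = 0.345). None of 10 mature OSN markers passed either (median 0.077), nor of 8 immature OSN markers (median 0.089), 8 basal cell and progenitor markers (median -0.057) or 7 sustentacular cell markers (median -0.025). Between homozygous and wild-type mice the mature and immature OSN lists and the OR genes thus had medians on the same side of 0. Markers of vomeronasal sensory neurons (4 tested, median 0.11) and of the ventral zone (2 tested, 0.053) lay on that side too. Markers of the dorsal zone (2 tested, -0.066) and of respiratory cilia (5 tested, -0.076) lay on the other side, as did 1 blood marker (-0.24). Between heterozygous and wild-type mice the medians were 0.037 for mature and 0.0081 for immature OSN markers. There they were -0.0058 for members and 0.014 for other OR genes. Whether the share of OSNs in the dissected tissue moved with the OR levels was not tested.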

How the data were processed

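Whole MOE of 9 mice was profiled, with genotypes taken from the sample titles. Per the labels and the study's methods, strand-specific libraries of polyA RNA were made, and the authors trimmed reads with Trimmomatic 0.36, mapped them to GRCm38 (mm10) with HISAT2 2.1.0 and deposited raw read counts per gene. The labels name HTSeq 0.6.1p1, while the study names featureCounts; the gene annotation and the strand setting used for counting are not given in the sources used here. A deposited table of normalized values (DESeq2 1.20.0) was not used. Rows that name no gene were left out of library sizes; of the reads with an outcome in the table, 21.6% to 22.4% were in no feature, 1.29% to 1.35% were ambiguous and 16.9% to 19.4% aligned to more than 1 place.

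Genes with at least 10 reads summed over the 9 libraries (20213) entered edgeR 4.0.16 in R 4.3.3 with TMM scaling and a quasi-likelihood test on genotype over all 9 libraries, adjusted by Benjamini-Hochberg at 0.05. The steps were tested on simulated data. Nothing in the labels says which replicates share a litter, so p-values measure the spread between these mice. Levels are TMM CPM, per kb of GENCODE M21 merged exon where genes are compared. Sequences are from RefSeq (GRCm38.p6). The members and gene lists were chosen with earlier results of these data known. Members are named by fixed ranks: the 10 highest wild-type levels, the 10 smallest p-values between homozygous and wild-type mice and the 5 smallest in the other 2 comparisons, the 5 widest ranges among libraries for members with 100 reads in each, the ends of the stretches, the 3 most similar protein pairs, the study's probes and the members not tested. Olfr1282, Olfr1299, Olfr1288 and the low and high members of families were named after their values were seen. Alternatives were other scalings, filters, DESeq2 1.42.0, a replicate block and libraries left out.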

Additional observations from a re-analysis of the deposited data

How the results depend on the processing

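Calls were the most stable result: 0 members passed the adjusted threshold in any comparison under every alternative run with a test, although DESeq2's default filter left up to 29 members without an adjusted p. Planned use of another annotation's exon length was not run, because that table holds gene spans only. Replicate numbers did not pair the libraries (correlation of deviations between libraries with the same number -0.21 to 0.092 over all genes and -0.090 to 0.20 over members). With the replicate block, the median log2 fold change of members was 0.099 (homozygous against wild type), -0.0055 (heterozygous against wild type) and 0.092 (homozygous against heterozygous), and of distal members 0.25; no call changed. Depth limits single genes: 18 members had fewer than 100 reads over the 9 libraries.

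With coding length, 5 of the 10 highest members remained in that list. Without the 3 libraries with vomeronasal reads, the median between heterozygous and wild-type mice was 0.079. Leaving out each library in turn, that median ran from -0.057 to 0.078, the homozygous against heterozygous median from 0.023 (without heterozygous replicate 1) to 0.16 (without heterozygous replicate 2), and the distal median, an alternative added after seeing the data, from 0.099 (without wild-type replicate 1) to 0.41 (without wild-type replicate 3). The cause was not tested.

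Log2 fold changes between homozygous and wild-type mice changed sign under at least 1 alternative for 13 named members, whose reported values ran from -0.18 (Olfr1272) to 0.24 (Olfr1130); none was called. Scaled to all OR reads, they were -0.040 for Olfr1213, -0.041 for Olfr1015, -0.032 for Olfr1228 and -0.023 for Olfr1263. Without the 3 libraries with vomeronasal reads they were -0.073 for Olfr1213, 0.23 for Olfr1264, -0.099 for Olfr1015, 0.031 for Olfr1272 and -0.13 for Olfr1057. Leaving out each library in turn, they ran from -0.082 to 0.077 for Olfr1213, -0.13 to 0.0019 for Olfr1006, -0.15 to 0.092 for Olfr1264, -0.047 to 0.088 for Olfr1015, -0.15 to 0.13 for Olfr1228, -0.12 to 0.013 for Olfr1107, -0.018 to 0.54 for Olfr1131, -0.078 to 0.24 for Olfr1263, -0.11 to 0.27 for Olfr1260, -0.18 to 0.45 for Olfr987 and -0.0023 to 0.36 for Olfr1130.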
